A study of Mus musculus with 39 samples.

Results

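Cytotoxic T lymphocytes and natural killer (NK) cells kill target cells by releasing granules at the contact site. Perforin, the product of Prf1, makes pores through which granzymes, the serine proteases of the granule, enter the target and start apoptosis, and FAS ligand on the killer cell provides a route to apoptosis that does not need perforin. The genes of this machinery are expressed mainly by effector and memory CD8+ T cells and by NK cells, and in healthy kidney, liver, lung and skin such cells are a small part of the tissue.

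Expression of 10 genes of this machinery was examined in perforin-deficient mice: the granzyme genes Gzma, Gzmb and Gzmk, the granule genes Nkg7, Cst7 and Ctsw, the receptor genes Klrd1 and Klrk1, the death ligand gene Fasl, and Prf1 itself. They were listed by name, with earlier results of these data known, and are 10 of the 24537 genes in the deposited counts of kidney, liver and lung and 10 of the 52508 genes in those of skin. RNA from whole tissue was sequenced in 39 libraries by a bulk form of MARS-seq, which counts reads at the 3′ ends of transcripts. All mice were Prf1-/- males on the C57BL/6 background, so the controls lacked perforin as well, and no wild-type library was compared here. Young mice were 3 months old and untreated. Old mice were 20 months old and had received vehicle or ABT-737, a small molecule that blocks survival proteins such as BCL-2, given intraperitoneally at 25 mg/kg on 2 consecutive days in each of 2 months, from 18 months of age. Each tissue had 4 young libraries (3 in skin), 3 vehicle libraries and 3 ABT-737 libraries. The treatment labels of ABT-737 replicates 4 and 5 read ABT-738 and ABT-739, and their titles place them with ABT-737. It is not stated whether libraries with the same number in different tissues came from 1 mouse, nor that replicates of a group were prepared apart, so p-values describe the spread between these libraries.

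Kidney libraries held 1431814 to 3513311 counts, liver libraries 223957 to 891116, lung libraries 1046508 to 2600092, and skin libraries 1493411 to 3842808. A count of 0 allows a level of up to 3 counts, which was 0.827 to 2.05 CPM (counts scaled to a common library size) in kidney and 3.51 to 13.1 CPM in the shallower liver libraries. Summed marker genes of each labelled tissue reached at least 10262 CPM in every library of that tissue and at most 484 CPM in any library of another tissue. Vehicle replicate 5 of lung stood apart from the other lung libraries. It held 6843 counts of the 10 genes (2560 CPM) against 978 and 859 counts (656 and 368 CPM) in vehicle replicates 3 and 4, together with the highest sum over 6 pan-leukocyte markers (6510 CPM, against 2359 and 2598 CPM) and the lowest sum of lung markers (29223 CPM, against 51838 and 42712 CPM). Lung differences from vehicle, and from young for vehicle, are given with and without it for the members tested there. For other genes in lung, the values without it are a fit chosen after seeing the data.

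In the counts of kidney, liver and lung, the gene models of the 10 members are RefSeq transcripts on GRCm38: Nkg7 at chr7:43437138-43438246 (+), Cst7 at chr2:150570415-150578944 (+), Ctsw at chr19:5465043-5468507 (−), Gzma at chr13:113093827-113100981 (−), Gzmk at chr13:113171874-113180897 (−), Gzmb at chr14:56258836-56262334 (−), Klrd1 at chr6:129591811-129598775 (+), Klrk1 at chr6:129610323-129623864 (−), Fasl at chr1:161780692-161788495 (−) and Prf1 at chr10:61297836-61304263 (+). Gzma neighbours Gzmk on chromosome 13, and Klrd1 neighbours Klrk1 on chromosome 6. Ctsw overlaps Fibp on the opposite strand, and whether counting used strand was not stated, so reads of these 2 genes may not be told apart. The skin counts used other gene models, in which every member ran 2000 bases past its annotated transcript end, so levels in skin are not set beside those of the other tissues.

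The promoter windows of Nkg7, Cst7, Gzmb and Klrk1 are shown, because these 4 members, of different roles, were all called higher in vehicle than in young lungs. Each is the RefSeq window of 300 bases from 250 bases before to 50 bases after the annotated start, on the gene's own strand, in GRCm38.p6. RefSeq windows were found for 8 of the 10 members, and Ctsw and Klrd1 had no entry. Capitals mark matches to GGTGTGA (the letters of a T-box site) or TGTGGTT (those of a RUNX site), searched on both strands as TCACACC and AACCACA too.
Nkg7, chr7:43436888-43437187 (+): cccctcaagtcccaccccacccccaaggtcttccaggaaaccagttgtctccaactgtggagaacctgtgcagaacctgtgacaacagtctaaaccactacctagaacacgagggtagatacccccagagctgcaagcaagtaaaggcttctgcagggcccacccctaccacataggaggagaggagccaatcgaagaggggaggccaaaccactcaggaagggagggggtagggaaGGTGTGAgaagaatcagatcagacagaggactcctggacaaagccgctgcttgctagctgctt
Cst7, chr2:150570165-150570464 (+): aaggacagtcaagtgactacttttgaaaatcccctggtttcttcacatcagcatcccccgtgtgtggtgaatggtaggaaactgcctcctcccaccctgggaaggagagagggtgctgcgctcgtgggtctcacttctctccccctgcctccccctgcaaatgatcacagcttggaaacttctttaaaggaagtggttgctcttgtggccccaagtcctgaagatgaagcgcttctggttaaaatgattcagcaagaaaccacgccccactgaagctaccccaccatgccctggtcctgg
Gzmb, chr14:56262285-56262584 (−): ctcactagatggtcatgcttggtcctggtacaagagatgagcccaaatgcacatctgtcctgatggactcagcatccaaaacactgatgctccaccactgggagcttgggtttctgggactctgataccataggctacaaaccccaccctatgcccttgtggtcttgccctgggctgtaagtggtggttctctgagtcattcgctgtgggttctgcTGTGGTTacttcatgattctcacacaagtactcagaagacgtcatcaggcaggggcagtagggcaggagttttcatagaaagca
Klrk1, chr6:129623815-129624114 (−): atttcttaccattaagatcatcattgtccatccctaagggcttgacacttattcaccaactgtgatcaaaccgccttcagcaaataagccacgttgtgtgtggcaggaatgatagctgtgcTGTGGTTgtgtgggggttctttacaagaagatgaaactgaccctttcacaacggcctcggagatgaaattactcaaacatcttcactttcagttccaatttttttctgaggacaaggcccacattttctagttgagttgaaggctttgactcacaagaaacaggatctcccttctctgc
The Nkg7 window held 1 T-box match, and the Gzmb and Klrk1 windows held 1 RUNX match each. The Cst7 window held neither set of letters. Among all 8 windows, 2 held a T-box match (Nkg7 and Gzmk) and 3 a RUNX match (Gzma, Gzmb and Klrk1), while 3.98% of 32851 mouse promoter windows of the same length held the first and 5.27% the second. A match is a run of letters and not a measured binding site.

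The first question was how these genes differed between old vehicle-treated and young Prf1-/- mice. Old mice had been dosed with vehicle and young mice were untreated, so age and vehicle dosing cannot be told apart. Below, differences with age and age effects stand for vehicle against young. Levels were higher with age for Nkg7, Cst7 and Ctsw in kidney, for Nkg7 in liver, for Gzmb, Nkg7, Cst7, Ctsw, Klrk1 and Fasl in lung, and for Ctsw and Klrk1 in skin, at an adjusted p under 0.05 (edgeR quasi-likelihood test with Benjamini-Hochberg adjustment over all genes tested in that tissue). In kidney these were 3 of the 3 members that passed the expression filter, in liver the 1 that passed, in lung 6 of 8, and in skin 2 of 4. Among all genes, the share called higher was 7.75% (of 11123 tested) for kidney, 11.7% (5583) for liver, 8.15% (11949) for lung and 5.84% (14224) for skin. A member could pass the filter through the one group in which it was high, so the number that passed says little by itself. With no filter, kidney had 6 of 10 members with a count called higher, liver 3 of 8, lung 7 of 10 and skin 5 of 9, beside 10.6%, 13.6%, 10.6% and 7.95% of all genes called in either direction in the same fits. In bulk RNA, fewer or more cells of a type and less or more RNA per cell cannot be told apart.

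The next question was whether ABT-737 treatment went with a different level in old mice. Against vehicle, Nkg7, Cst7 and Ctsw were lower in kidney and Nkg7 was lower in liver, beside 1.21% of all genes in kidney and 2.85% in liver called lower. In lung and skin, edgeR called 0 of 8 and 0 of 4 members, and 0 of all 11949 and 14224 genes tested (0% in both). At an unadjusted p under 0.05 stood 6 of the 8 members in lung and 4 of the 4 in skin, beside 1919 and 1134 of all genes, and DESeq2 called 2 members in lung (Nkg7 and Klrk1) and 0 in skin, beside 342 (2.86%) and 60 (0.422%) of all genes. In lung 99 of all genes were called with the replicate number as a block (3 members: Nkg7, Cst7 and Gzmb), 676 without ABT-737 replicate 4 (1 member, Prf1) and 122 without ABT-737 replicate 5 (2 members, Nkg7 and Gzmb). ABT-737 mice still differed from young mice in Nkg7, which was higher in kidney and in liver, where 1.38% and 3.13% of all genes were called higher. Against young mice edgeR called 0 of 8 members in lung and 0 of 4 in skin, where 2.55% and 5.17% of all genes were called. In that comparison 4 members in lung and 2 in skin stood at an unadjusted p under 0.05, and DESeq2 called 2 in lung (Nkg7 and Cst7) and 0 in skin, beside 783 (6.55%) and 2116 (14.9%) of all genes. The comparisons of vehicle with young and of ABT-737 with vehicle share the vehicle libraries, so the values are given side by side and the opposite signs are not separate evidence.

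**Figure D1:**
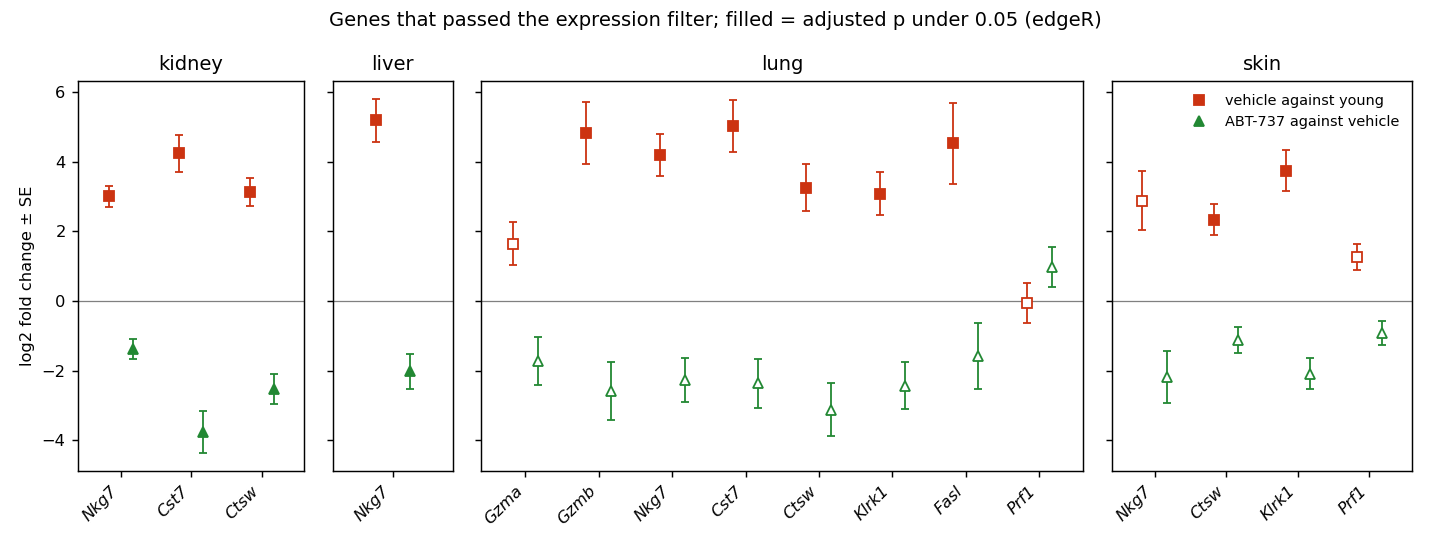
Log2 fold change of every member that passed the expression filter, by tissue, with bars of 1 standard error (edgeR). Red squares compare vehicle with young and green triangles ABT-737 with vehicle, and filled symbols have an adjusted p under 0.05. The red squares lie above 0 for all but Prf1 in lung (-0.05), and the filled green triangles are Nkg7, Cst7 and Ctsw in kidney and Nkg7 in liver.

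The median log2 fold change of the members tested, vehicle against young, was 3.13 in kidney (3 members), 5.19 in liver (1 member), 3.73 in lung (8 members) and 2.61 in skin (4 members), where the medians over all genes tested lay between 0.00625 and 0.0545. For ABT-737 against vehicle the medians of the members were -2.52, -2.02, -2.31 and -1.60 in the same order, and those over all genes lay between -0.0321 and 0.0426. The medians differ in what they cover, since 1 to 8 genes passed the filter. Cst7 and Ctsw in kidney, Nkg7 in liver and Klrk1 in skin had few counts outside the vehicle group and could pass through that group alone. The filter therefore sets part of both shifts, and their distance from the medians over all genes is not separate evidence.

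Nkg7 encodes a membrane protein of cytotoxic granules that takes part in their release, and it was the member with the most counts in kidney, liver and lung. In kidney it had 11, 11, 21 and 11 counts in young mice, 66, 69 and 92 in vehicle mice, and 29, 19 and 38 in ABT-737 mice. The ABT-737 libraries thus lay between the other groups, and no groups overlapped once scaled to depth. Mean levels were 4.74 ± 1.29 CPM (SD, n = 4) in young, 38.8 ± 11.3 CPM (SD, n = 3) in vehicle and 14.7 ± 5.17 CPM (SD, n = 3) in ABT-737 mice. The log2 fold change of vehicle against young was 3.01 (SE 0.30, edgeR adjusted p = 8.37e-06), an 8.05-fold difference. ABT-737 was lower than vehicle by a log2 fold change of -1.38 (SE 0.29, edgeR adjusted p = 0.0254) and higher than young by 1.63 (SE 0.34, edgeR adjusted p = 0.0171). The difference between ABT-737 and vehicle lost its call without ABT-737 replicate 3 (adjusted p = 0.0701) or 4 (0.116), without vehicle replicate 4 (0.111) or 5 (0.0993), or in a fit of only the 2 groups compared (0.0824), all by edgeR, and it held in 9 of 15 alternatives. The difference between ABT-737 and young lost it without ABT-737 replicate 3 (edgeR adjusted p = 0.0561) or 5 (0.0697) or without young replicate 2 (0.0668) or 4 (0.0512), and held in 10 of 15 alternatives. The age difference stayed past the threshold in all 15 alternatives.

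In liver Nkg7 was the only member above the filter. It had 1, 1, 0 and 0 counts in young mice, 7, 28 and 39 in vehicle mice (30.5, 32.8 and 50.1 CPM), and 4, 2 and 5 in ABT-737 mice (15.9, 3.79 and 12.4 CPM). Every vehicle library was above every ABT-737 library in CPM, and every ABT-737 library above every young one. The log2 fold change was 5.19 (SE 0.62, edgeR adjusted p = 4.64e-05) for vehicle against young, with young libraries at or under 1 count, and 3.17 (SE 0.87, edgeR adjusted p = 0.0323) for ABT-737 against young. ABT-737 was lower than vehicle by -2.02 (SE 0.50, edgeR adjusted p = 0.0321). That last call rests on few counts: it was lost without ABT-737 replicate 3 (edgeR adjusted p = 0.0585), 4 (0.252) or 5 (0.0782), without vehicle replicate 4 (0.0658) or 5 (0.128), in a fit of only the 2 groups compared (0.0769), and with DESeq2 (0.0525), and it held in 7 of 15 alternatives. The call of ABT-737 against young was lost without ABT-737 replicate 3 (edgeR adjusted p = 0.115) or 5 (0.139) or without young replicate 2 (0.0568), 3 (0.0914) or 4 (0.0805), and held in 8 of 14 alternatives. Marker genes of other leukocytes moved with Nkg7 in liver: of the macrophage markers 8 of 8 tested were called higher with age and 7 of 8 lower with ABT-737, and of the pan-leukocyte markers 4 of 5 and 4 of 5. Among all genes in liver 11.7% were called higher with age and 2.85% lower with ABT-737. The macrophage markers summed to 434 to 593 CPM in young, 2147 to 2393 in vehicle and 358 to 673 in ABT-737 livers. Their part in the result was not tested.

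In lung Nkg7 had 68, 37, 80 and 70 counts in young mice (25.7 to 43.4 CPM), 516, 512 and 3600 in vehicle mice (346, 220 and 1347 CPM) and 98, 75 and 563 in ABT-737 mice (63.1, 79.0 and 252 CPM). All vehicle and ABT-737 libraries lay above all young ones, and ABT-737 replicate 5 lay above vehicle replicate 4. Vehicle against young gave a log2 fold change of 4.19 (SE 0.61, edgeR adjusted p = 0.00259), and without vehicle replicate 5 the value was 3.02 (edgeR adjusted p = 0.00586). ABT-737 against vehicle gave -2.27 (SE 0.63, edgeR adjusted p = 0.129), which was not called, and -1.09 without vehicle replicate 5 (edgeR adjusted p = 0.541). With the replicate number as a block the same difference was -2.13 (edgeR adjusted p = 0.0272). Deviations of same-numbered lung libraries were correlated, but so were those of some differently numbered ones, so pairing by number is not established. It was also called without ABT-737 replicate 5 (-3.19, edgeR adjusted p = 0.0357).

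In skin Nkg7 had 0, 5 and 9 counts in young mice, 23, 29 and 129 in vehicle mice (10.1, 10.3 and 35.6 CPM) and 20, 3 and 19 in ABT-737 mice (5.19, 1.18 and 5.79 CPM). Vehicle libraries lay above both other groups, which overlapped each other. The log2 fold change of 2.88 for vehicle against young (SE 0.84, edgeR adjusted p = 0.0557) was just short of the threshold, and DESeq2 put it past it (2.95, adjusted p = 0.00483). Its call also changed without ABT-737 replicate 3 (edgeR adjusted p = 0.0478) or 4 (0.0498), which enter the shared estimate of spread, and in a fit of only the 2 groups compared (0.0426). The ABT-737 difference from vehicle was -2.17 (SE 0.74, edgeR adjusted p = 0.519).

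**Figure D2:**
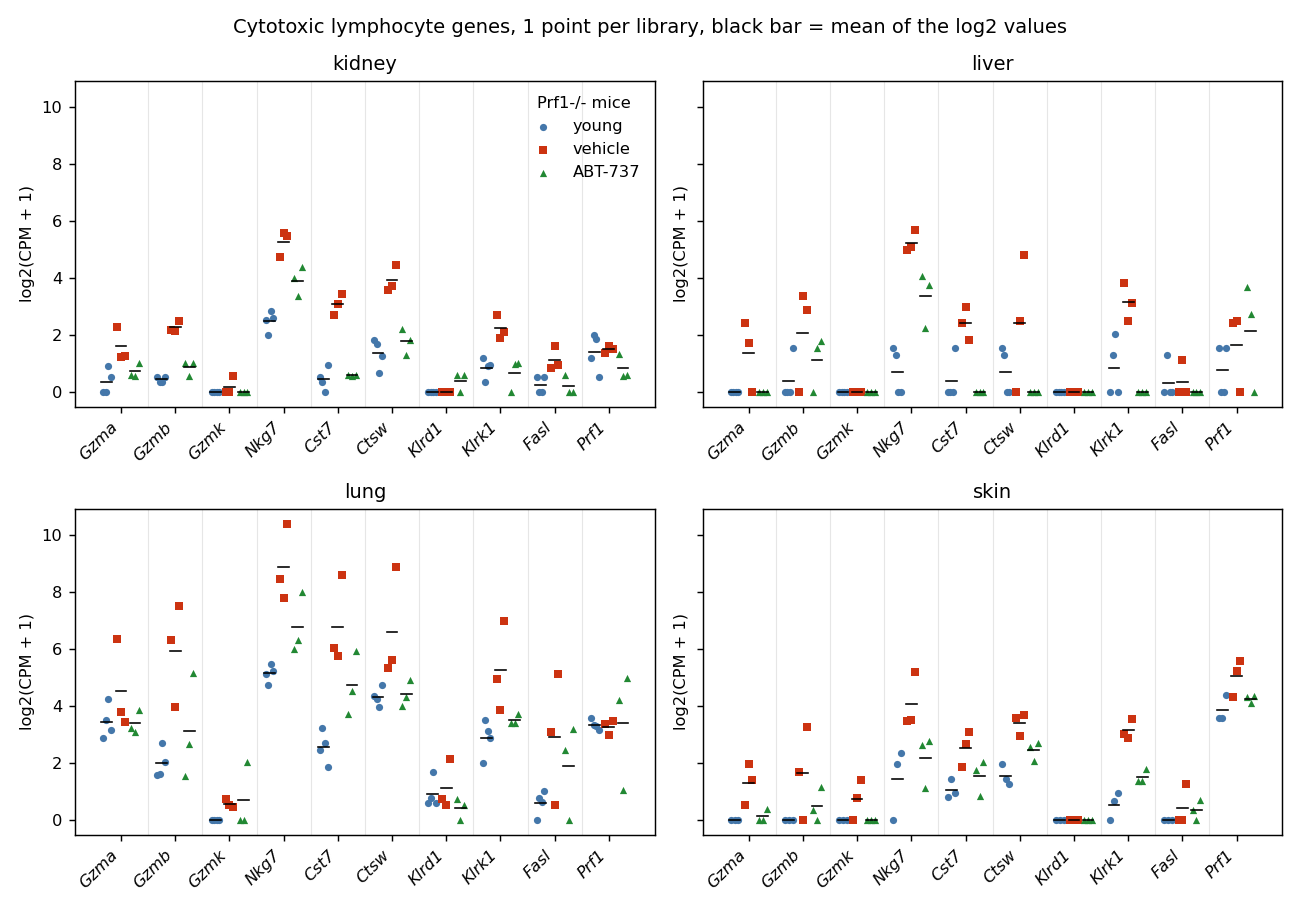
Level of each member in every library, as log2(CPM + 1), in 4 panels for the 4 tissues. Points are libraries of young, vehicle and ABT-737 mice and the black bar is the mean of the log2 values. Nkg7 in kidney shows the order young, ABT-737, vehicle without overlap, and Prf1 in lung shows young and vehicle libraries at the same level (6.86 to 10.8 CPM).

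Cst7 encodes cystatin F, an inhibitor of the cysteine cathepsins that process granule proteases. In kidney it had 1, 1, 0 and 2 counts in young mice, 14, 11 and 21 in vehicle mice and 1, 1 and 1 in ABT-737 mice. Vehicle libraries stood apart, and the ABT-737 libraries lay within the range of the young ones. Vehicle against young gave a log2 fold change of 4.24 (SE 0.53, edgeR adjusted p = 6.35e-05), and ABT-737 against vehicle -3.76 (SE 0.60, edgeR adjusted p = 0.00365). Both calls held in all 15 alternatives, with adjusted p-values up to 0.0197 and 0.0345. ABT-737 against young gave 0.48 (SE 0.94, edgeR adjusted p = 0.845), where the groups had 3 and 4 counts in all.

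In lung Cst7 had 9, 12, 10 and 5 counts in young mice (2.60 to 8.34 CPM), 95, 122 and 1020 in vehicle mice (63.7, 52.3 and 382 CPM) and 19, 21 and 135 in ABT-737 mice (12.2, 22.1 and 60.4 CPM). The vehicle and ABT-737 groups overlapped through ABT-737 replicate 5, and neither overlapped with young. The log2 fold change was 5.02 for vehicle against young (SE 0.75, edgeR adjusted p = 0.00259), and 3.50 without vehicle replicate 5 (edgeR adjusted p = 0.00586). ABT-737 against vehicle was -2.36 (SE 0.70, edgeR adjusted p = 0.142), -2.14 with the replicate number as a block (edgeR adjusted p = 0.0325), and -0.83 without vehicle replicate 5 (edgeR adjusted p = 0.714). In liver and skin Cst7 did not pass the filter, with 1, 6 and 2 counts in vehicle livers against 0 or 1 elsewhere in liver, and 6, 15 and 27 counts in vehicle skin against 1 to 3 in young and 2 to 10 in ABT-737 skin.

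Ctsw encodes cathepsin W, a cysteine protease found mainly in NK and CD8+ T cells. In kidney it had 6, 8, 2 and 3 counts in young mice, 28, 18 and 45 in vehicle mice and 7, 3 and 5 in ABT-737 mice. Vehicle libraries were above all others, while young and ABT-737 libraries overlapped. The age difference in kidney was 3.13 on the log2 scale (SE 0.40, edgeR adjusted p = 8.12e-05), an 8.74-fold difference, and ABT-737 against vehicle -2.52 (SE 0.44, edgeR adjusted p = 0.00694). The second call was lost in 1 of 15 alternatives, without ABT-737 replicate 4 (edgeR adjusted p = 0.0551). In liver Ctsw had 0, 4 and 21 counts in vehicle mice, 0 or 1 in young and 0 in ABT-737 mice, and did not pass the filter.

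In lung Ctsw had 39, 26, 27 and 49 counts in young mice (14.7 to 25.5 CPM), 58, 111 and 1250 in vehicle mice (38.9, 47.6 and 468 CPM) and 23, 18 and 65 in ABT-737 mice (14.8, 19.0 and 29.1 CPM). Vehicle libraries lay above both other groups, which overlapped. The log2 fold change of vehicle against young was 3.26 (SE 0.68, edgeR adjusted p = 0.00799) and rested on vehicle replicate 5: without it the value was 1.16 (edgeR adjusted p = 0.0666), and with the replicate block 1.59 (edgeR adjusted p = 0.173). No young lung has number 5, so the block gives vehicle replicate 5 less weight against young and is not a separate check. ABT-737 against vehicle was -3.12 (SE 0.76, edgeR adjusted p = 0.120), and -1.03 without that library (edgeR adjusted p = 0.386). In skin Ctsw had 4, 3 and 3 counts in young mice, 25, 19 and 43 in vehicle mice and 19, 8 and 18 in ABT-737 mice. In CPM the ABT-737 skin libraries (4.93, 3.13 and 5.49) lay between the young (1.36 to 2.89) and the vehicle ones (6.76 to 11.9) with no overlap. Vehicle against young was called at 2.34 (SE 0.44, edgeR adjusted p = 0.0172), a call lost without young replicate 1 (edgeR adjusted p = 0.0602), 2 (0.0764) or 3 (0.0574) or without vehicle replicate 5 (0.0564), and held in 9 of 14 alternatives. ABT-737 against vehicle was -1.11 (SE 0.37, edgeR adjusted p = 0.511), which was not called.

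Gzmb encodes granzyme B, which cleaves after aspartate and activates caspases in the target cell. In lung it had 4, 3, 10 and 6 counts in young mice (1.96 to 5.43 CPM), 118, 34 and 482 in vehicle mice (79.1, 14.6 and 180 CPM) and 3, 5 and 78 in ABT-737 mice (1.93, 5.27 and 34.9 CPM). Vehicle lungs lay above young ones, and ABT-737 lungs overlapped both groups. The age difference in lung was 4.82 on the log2 scale (SE 0.88, edgeR adjusted p = 0.00443), and 3.84 without vehicle replicate 5 (edgeR adjusted p = 0.0245). ABT-737 against vehicle gave -2.58 (SE 0.83, edgeR adjusted p = 0.163), and -1.60 without vehicle replicate 5 (edgeR adjusted p = 0.623). The difference with all libraries was past the threshold with the replicate block (-2.92, edgeR adjusted p = 0.0332) and without ABT-737 replicate 5 (-4.79, edgeR adjusted p = 0.0350). Outside lung Gzmb did not pass the filter. In kidney it had 1 count in each young library, 9, 5 and 10 in vehicle and 2, 1 and 2 in ABT-737 libraries, and with no filter the age difference had an edgeR adjusted p = 0.000467. In liver it had 0, 8 and 5 counts in vehicle mice and 0 or 1 in the others, and in skin 5, 0 and 31 in vehicle mice, 0 in young and 1, 0 and 4 in ABT-737 mice.

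Gzma encodes granzyme A, a granule protease that cleaves after basic residues. Its lung values did not follow those of Gzmb. Young lungs had 13, 15, 33 and 15 counts (6.38 to 17.9 CPM), vehicle lungs 120, 30 and 26 (80.5, 12.9 and 9.73 CPM) and ABT-737 lungs 13, 7 and 30 (8.37, 7.38 and 13.4 CPM). Only vehicle replicate 3 lay above the young range, and vehicle replicate 5, the highest lung library for 7 other members, was not high for Gzma. Vehicle against young gave 1.65 (SE 0.62, edgeR adjusted p = 0.0942), not called, 2.04 without vehicle replicate 4 (edgeR adjusted p = 0.0325) and 2.11 without vehicle replicate 5 (edgeR adjusted p = 0.0527). The ABT-737 group differed from vehicle by -1.73 (SE 0.69, edgeR adjusted p = 0.245), and by -2.19 without vehicle replicate 5 (edgeR adjusted p = 0.332). In kidney Gzma had 0, 0, 3 and 1 counts in young, 10, 2 and 3 in vehicle and 1, 1 and 2 in ABT-737 mice. In skin it had 1, 8 and 6 counts in vehicle mice, 0 in every young and 1 in all ABT-737 libraries together, and in liver at most 2 counts in any library.

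Gzmk, the gene of granzyme K, a protease of memory CD8+ T cells, was near 0 throughout. It had 1 count in each vehicle lung, 0 in every young lung and 0, 0 and 7 in ABT-737 lungs. In skin it had 0, 2 and 6 counts in vehicle mice and 0 elsewhere, in kidney 1 count in 1 vehicle library, and in liver none. The skin gene model of Gzmk overlaps Esm1 on the opposite strand, so its skin counts may include reads of Esm1. No difference in Gzmk was detectable at this depth in kidney or liver. Outside skin its gene model also stopped 266 bases short of the annotated gene end. Reads at the 3′ end may thus be missed, and low counts need not mean low expression.

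Klrk1 encodes NKG2D, an activating receptor of NK and CD8+ T cells for ligands that stressed cells display. In lung it had 6, 15, 14 and 12 counts in young mice (2.94 to 10.4 CPM), 44, 31 and 337 in vehicle mice (29.5, 13.3 and 126 CPM) and 15, 9 and 27 in ABT-737 mice (9.66, 9.48 and 12.1 CPM). Every vehicle library lay above every young and every ABT-737 library. With age Klrk1 was higher in lung by 3.08 on the log2 scale (SE 0.62, edgeR adjusted p = 0.00665). That call was lost without vehicle replicate 5 (1.65, edgeR adjusted p = 0.0608) and with the replicate block (1.92, edgeR adjusted p = 0.108). Against young, the block gives that library less weight, so it is not a separate check. ABT-737 against vehicle gave -2.42 (SE 0.66, edgeR adjusted p = 0.129), DESeq2 called it (-2.44, adjusted p = 0.0214), and without vehicle replicate 5 it was -1.0 (edgeR adjusted p = 0.591).

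In skin Klrk1 had 0, 1 and 2 counts in young mice, 16, 18 and 38 in vehicle mice (7.03, 6.41 and 10.5 CPM) and 6, 4 and 8 in ABT-737 mice (1.56, 1.57 and 2.44 CPM). The 3 groups did not overlap in CPM, with ABT-737 between the others. The log2 fold change of 3.75 for vehicle against young (SE 0.60, edgeR adjusted p = 0.0124) was the largest of the 4 members tested in skin, and it lost its call without young replicate 1 (edgeR adjusted p = 0.0574) or 2 (0.0606), and held in 11 of 14 alternatives. ABT-737 against vehicle gave -2.08 (SE 0.45, edgeR adjusted p = 0.476). In kidney Klrk1 had 3, 1, 3 and 2 counts in young, 14, 4 and 7 in vehicle and 0, 2 and 2 in ABT-737 libraries, and in liver 3, 4 and 6 in vehicle, 0 to 2 in young and 0 in ABT-737 libraries.

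Klrd1 encodes CD94, which pairs with NKG2 chains on NK and CD8+ T cells. It had 1, 1, 4 and 1 counts in young lungs, 1, 1 and 9 in vehicle lungs and 1, 0 and 1 in ABT-737 lungs. The highest lung value was again in vehicle replicate 5. In kidney it had 1, 0 and 1 counts in ABT-737 mice and 0 in the others, and in liver and skin 0 counts in every library, which allows up to 13.1 CPM in the shallowest liver library and 2.17 CPM in the shallowest skin library.

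Fasl encodes FAS ligand. In lung it had 0, 1, 1 and 2 counts in young mice, 11, 1 and 91 in vehicle mice (7.38, 0.429 and 34.0 CPM) and 7, 0 and 18 in ABT-737 mice (4.51, 0 and 8.05 CPM). All groups overlapped, since vehicle replicate 4 had 1 count and ABT-737 replicate 4 had 0. Vehicle against young was called at 4.53 (SE 1.16, edgeR adjusted p = 0.0212), and 8 of 14 alternatives kept the call. Without vehicle replicate 5 the value was 2.52 (edgeR adjusted p = 0.303), with the replicate block 2.18 (edgeR adjusted p = 0.355), and without any single young library the adjusted p lay between 0.0544 and 0.0693. Against young, the block gives vehicle replicate 5 less weight, so it is not a separate check. ABT-737 against vehicle gave -1.57 (SE 0.96, edgeR adjusted p = 0.436), and without vehicle replicate 5 its sign turned (0.42, edgeR adjusted p = 0.966). In the other tissues no library had more than 5 counts of Fasl.

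Prf1 is the gene that these mice lack in functional form. Reads were assigned to it in all 4 tissues. The position of the deleted part was not given in the sources used here, so 3′ reads check nothing about the knockout. Outside skin the Prf1 gene model, like that of Gzmk, stopped short of the annotated gene end. Reads at the 3′ end may thus be missed there, and low counts of Prf1 need not mean low expression. In lung it had 22, 13, 16 and 15 counts in young mice (7.80 to 10.8 CPM), 14, 16 and 27 in vehicle mice (9.39, 6.86 and 10.1 CPM) and 27, 1 and 68 in ABT-737 mice (17.4, 1.05 and 30.4 CPM). Young and vehicle lungs lay in the same range, vehicle replicate 5 included, and the ABT-737 lungs spread below and above it. Vehicle against young gave -0.05 (SE 0.57, edgeR adjusted p = 0.966), and ABT-737 against vehicle 0.98 (SE 0.59, edgeR adjusted p = 0.428), and without vehicle replicate 5 these values were -0.18 and 1.11 (edgeR adjusted p = 0.927 and 0.715). Without ABT-737 replicate 4, the library with 1 count, Prf1 was called higher in ABT-737 than in vehicle lungs (1.44, edgeR adjusted p = 0.0316) and than in young lungs (1.39, edgeR adjusted p = 0.0189). That library also had the highest sum of mast cell and basophil markers among vehicle and ABT-737 lungs (388 CPM, against 22.1 to 97.9 CPM), and their part in the result was not tested.

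In skin Prf1 was the member with the most counts. It had 15, 19 and 44 counts in young mice (10.9, 10.9 and 20.0 CPM), 43, 102 and 169 in vehicle mice (18.9, 36.3 and 46.6 CPM) and 73, 41 and 63 in ABT-737 mice (18.9, 16.1 and 19.2 CPM). Each pair of groups overlapped. Vehicle against young gave 1.27 (SE 0.36, edgeR adjusted p = 0.0530), just short of the threshold. DESeq2 called it (1.27, adjusted p = 0.0189), as did edgeR without vehicle replicate 3 (1.54, adjusted p = 0.0282) or without ABT-737 replicate 3 (1.26, adjusted p = 0.0489). Between ABT-737 and vehicle skin the value was -0.91 (SE 0.35, edgeR adjusted p = 0.576). In kidney Prf1 had 3, 11, 9 and 1 counts in young mice, 4, 3 and 4 in vehicle mice and 3, 1 and 1 in ABT-737 mice, and with no filter the age difference was -0.18 (edgeR adjusted p = 0.902). In liver it had at most 4 counts in any library.

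The remaining comparison, ABT-737 against young, left most members uncalled. In lung the log2 fold change was 2.67 for Cst7 (SE 0.75, edgeR adjusted p = 0.0703), 1.93 for Nkg7 (SE 0.58, edgeR adjusted p = 0.0827), 2.24 for Gzmb (SE 0.93, edgeR adjusted p = 0.191) and 2.96 for Fasl (SE 1.32, edgeR adjusted p = 0.223). Cst7 and Nkg7 passed the threshold without ABT-737 replicate 4 (edgeR adjusted p = 0.0424 and 0.0404), without vehicle replicate 4 (0.0424 and 0.0471) and without vehicle replicate 5 (0.0161 and 0.0234). The values were lower for Klrk1 (0.66, SE 0.69), Ctsw (0.14, SE 0.72) and Gzma (-0.08), with edgeR adjusted p-values from 0.630 to 0.963. In kidney Ctsw gave 0.61 (SE 0.56, edgeR adjusted p = 0.630). In skin Klrk1 gave 1.66 (SE 0.68), Ctsw 1.23 (SE 0.46), Nkg7 0.71 and Prf1 0.36, with edgeR adjusted p-values from 0.115 to 0.622.

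Prf1 took different parts of the summed counts of the 10 genes in different groups. In lung it made up 13.6%, 10.6%, 8.21% and 8.57% of these counts in young libraries, 1.43%, 1.86% and 0.395% in vehicle libraries, and 13.1%, 0.735% and 6.85% in ABT-737 libraries. Every vehicle share was below every young share, while the ABT-737 shares ran across both. Mean Prf1 was 9.08 CPM in young and 8.78 CPM in vehicle lungs, while most other members were higher in vehicle lungs. The shares thus restate the differences given above and are not separate evidence. Over pooled counts the share was 10.1% in young (exact 95% binomial interval 7.88 to 12.6), 0.657% in vehicle (0.498 to 0.850) and 7.2% in ABT-737 lungs (5.87 to 8.72), with intervals that cover counting error only. Replicate 5 held most of the pooled lung counts, 6843 of 8680 in vehicle and 992 of 1334 in ABT-737 mice. In kidney Prf1 made up 11.5%, 33.3%, 23.1% and 4.55% in young libraries, 2.72%, 2.61% and 2.16% in vehicle libraries and 6.67%, 3.57% and 1.92% in ABT-737 libraries. Every vehicle share was below every young share there too, and the ABT-737 shares overlapped with both groups. The pooled share was 20.0% in young (13.3 to 28.3), 2.46% in vehicle (1.23 to 4.36) and 4.00% in ABT-737 mice (1.31 to 9.09). In skin the shares ran from 61.3% to 75.0% in young, from 36.1% to 52.8% in vehicle and from 50.4% to 70.7% in ABT-737 libraries, and the last group overlapped with both others. Pooled, they were 70.3% (60.9 to 78.6), 41.0% (37.5 to 44.6) and 56.7% (51.0 to 62.3). Shares are of 3′ read counts and do not rank molecules of different genes. In lung and kidney the Prf1 gene model stopped short of the annotated gene end, so its shares there may be too low in every group.

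The other members moved within this make-up too. Gzma took 8.02% to 16.9% of the counts in young lungs, 12.3%, 3.49% and 0.380% in vehicle lungs and 3.02% to 6.31% in ABT-737 lungs. Nkg7 took a pooled 38.9% in young, 53.3% in vehicle and 55.2% in ABT-737 lungs. The pooled share of Cst7 was 5.50% in young, 14.3% in vehicle and 13.1% in ABT-737 lungs.

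**Figure D3:**
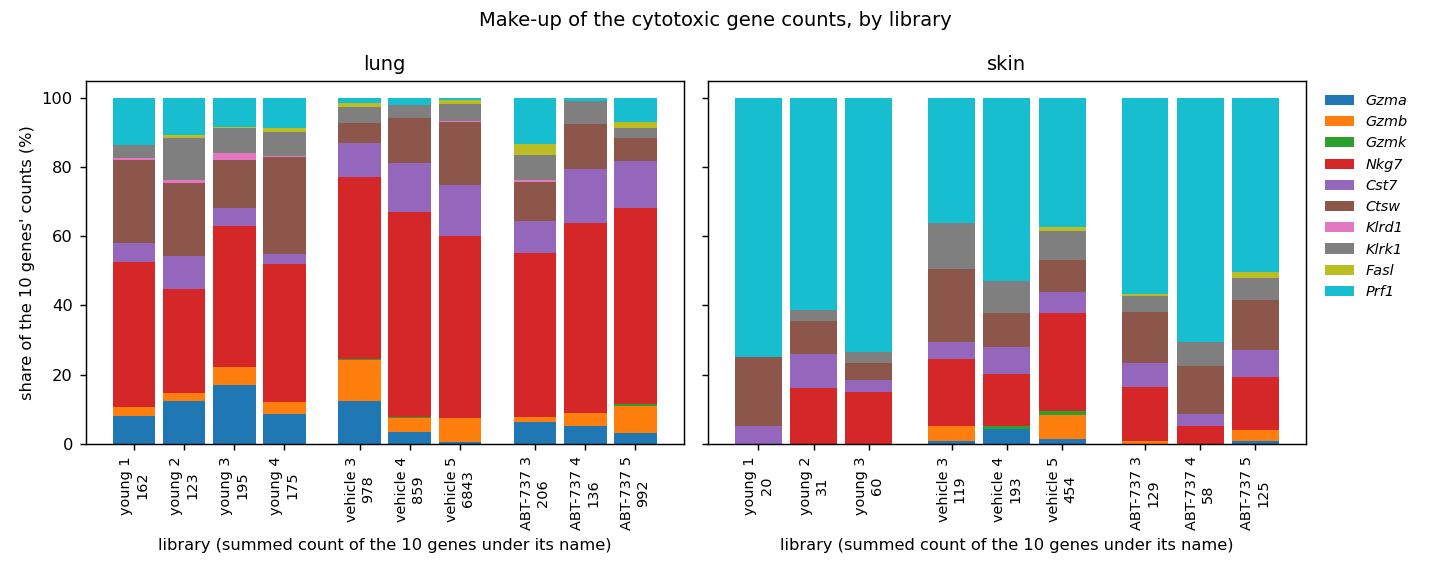
Share of each member in the summed counts of the 10 genes, in percent, as 1 stacked bar per library of lung and skin. Prf1 takes 8.21% to 13.6% in young lungs and 0.395% to 1.86% in vehicle lungs, and 61.3% to 75.0% in young skin and 36.1% to 52.8% in vehicle skin.

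Genes of the cells that carry this machinery were followed in the same comparisons. Of 16 T cell genes, all that were tested were higher in vehicle than in young mice: 8 for kidney, 2 for liver, 16 for lung and 6 for skin. Among all genes tested 7.75%, 11.7%, 8.15% and 5.84% were called higher in the same order. A listed gene could pass the filter through the vehicle group alone, so these counts say little by themselves. Examples in lung were Cd3d, a chain of the T cell receptor complex (log2 fold change 4.63), and Cd8a, the CD8 coreceptor (4.26), both past the threshold by edgeR, with 3.31 and 3.26 without vehicle replicate 5, where 15 of the 16 were called. Of 27 listed genes of NK and effector lymphocytes, kidney had 5 of 5 tested called higher, liver 2 of 2, lung 12 of 14 (7 of 14 without vehicle replicate 5) and skin 4 of 6. Without that library 385 of all 12289 genes tested in lung were called higher. The chemokine gene Ccl5 was higher in all 4 tissues, with log2 fold changes of 4.05 (SE 0.31) in kidney, 5.26 (SE 0.39) in liver, 4.46 (SE 0.61) in lung and 5.32 (SE 0.94) in skin. In lung Ifng, the gene of interferon gamma, was higher by 5.02 (SE 0.94) and Eomes, a T-box factor of effector lymphocytes, by 5.15 (SE 0.95). Without vehicle replicate 5 the lung values were 3.58 (SE 0.50) for Ccl5, 3.74 (SE 0.91) for Ifng and 3.86 (SE 0.88) for Eomes, all 3 still called.

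ABT-737 against vehicle, 4 of 8 T cell genes were lower in kidney (Cd3d -3.01, Lck -2.41, Cd8a -2.0 and Thy1 -1.96), and 1 of 2 in liver (Thy1 -3.15). Of the NK and effector genes 2 of 5 were lower in kidney (Ccl5 -1.91 and Hcst -1.89) and 2 of 2 in liver (Ccl5 -3.22 and Tyrobp -1.90). Among all genes 1.21% in kidney and 2.85% in liver were called lower. In lung and skin edgeR called 0 genes of these lists, as it called 0 of all genes there.

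Sums over some marker lists followed the same order of groups as the members in kidney and lung, and others did not. The 10 genes summed to 9.10 to 11.4 CPM in young, 57.7 to 86.9 in vehicle and 13.9 to 27.0 in ABT-737 kidneys. The 16 T cell genes summed to 23.5 to 25.1, 117 to 192 and 26.7 to 59.6 CPM in the same groups, and 6 pan-leukocyte markers to 90.9 to 115, 374 to 594 and 159 to 218 CPM. Kidney macrophage markers were called higher with age for 7 of 7 genes tested and lower with ABT-737 for 4 of 7, and pan-leukocyte markers for 6 of 6 and 5 of 6. Among all genes in kidney 7.75% were called higher with age and 1.21% lower with ABT-737. B cell markers did not follow: they summed to 2.63 to 3.43 CPM in young, 6.57 to 60.9 in vehicle and 5.44 to 18.7 in ABT-737 kidneys, with overlap of the old groups. In lung the members summed to 79.5 to 106 CPM in young, 368 to 2560 in vehicle and 133 to 444 in ABT-737 mice, and the T cell genes to 186 to 237, 918 to 3775 and 294 to 731 CPM. Lung B cell markers summed to 86.8 to 147, 242 to 429 and 81.8 to 446 CPM, and mast cell and basophil markers to 96.1 to 133, 22.1 to 95.2 and 64.9 to 388 CPM, lower in vehicle than in young lungs. In lung 4 of 8 macrophage and 4 of 6 pan-leukocyte markers were called higher with age (4 of 8 and 1 of 6 without vehicle replicate 5). Among all genes in lung 8.15% were called higher, and 385 of 12289 without that library. The part of cell numbers in the members' differences was not tested.

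The members' counts were also set against those of T cell receptor complex genes, as their sum divided by the summed counts of Cd3d, Cd3e, Cd3g and Cd247. In kidney the pooled ratio was 2.73 in young, 2.94 in vehicle and 2.55 in ABT-737 mice, and the libraries of the 3 groups overlapped (2.20 to 4.33, 2.53 to 3.87 and 2.14 to 3.11). In lung it was 4.07, 3.20 and 2.97, again with overlap (3.07 to 6.29, 2.10 to 3.53 and 2.06 to 3.81). In skin, where Prf1 holds much of the sum, it was 2.18 in young (1.67 to 2.40), 4.05 in vehicle (3.31 to 4.37) and 3.32 in ABT-737 mice (2.50 to 4.83), and young libraries lay below all others. In liver too few counts were present for a ratio in every library. These ratios are descriptions and were not tested.

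**Figure D4:**
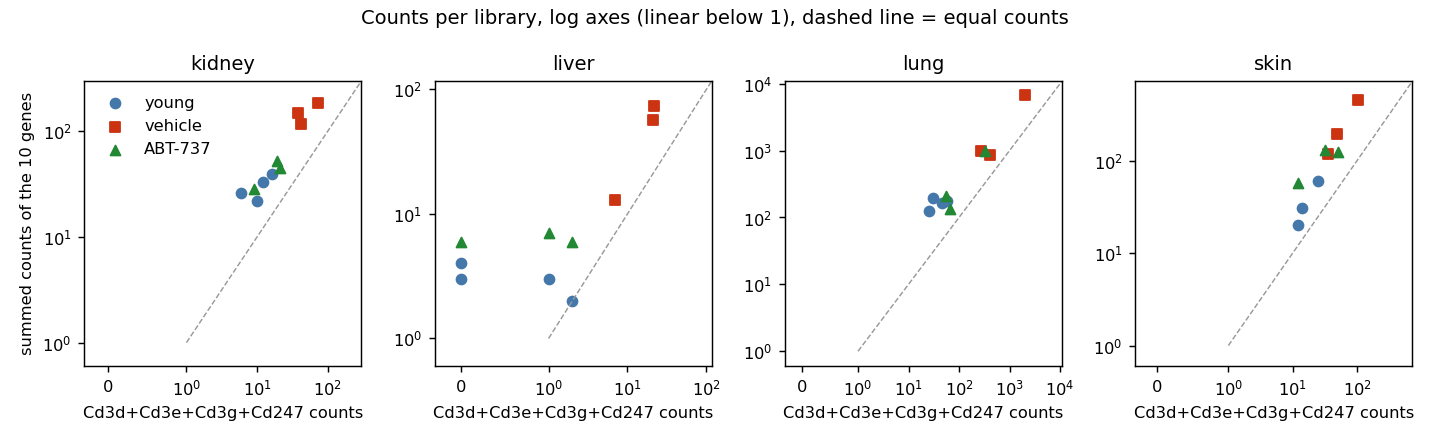
Summed counts of the 10 members (vertical axis) against summed counts of Cd3d, Cd3e, Cd3g and Cd247 (horizontal axis) in every library, on log axes that are linear below 1. The dashed line marks equal counts. Kidney libraries lie above it by a ratio of 2.14 to 4.33 in all 3 groups.

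Defining NK cell genes were low outside lung. Ncr1, the gene of the NK receptor NKp46, had 0 or 1 count in every kidney, liver and skin library. Young lungs had 6 to 10 counts of Ncr1, vehicle lungs 1 to 7 and ABT-737 lungs 0 to 3. Klrb1c, the gene of the NK receptor NK1.1, had 7 to 18, 4 to 42 and 2 to 11 counts in the same groups, which overlapped. Eomes, listed with them as an NK marker, was higher in vehicle lungs, with 0 to 5, 33 to 291 and 3 to 69 counts in the same groups. These markers thus did not move together in lung. Cd3e, a chain of the T cell receptor complex, ran from 7 to 21 counts in young lungs, from 80 to 507 in vehicle lungs and from 30 to 120 in ABT-737 lungs. Cd8a ran from 3 to 15, from 79 to 502 and from 6 to 75 counts in these groups.

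Other steps of granule killing were covered by lists of genes that work before or after the members. Of the granule maturation and exocytosis genes, kidney had 2 of 10 tested called higher with age, liver 0 of 5, lung 3 of 11 and skin 3 of 11, and 0 were called lower, beside the shares of all genes called higher given above (7.75%, 11.7%, 8.15% and 5.84%). The 2 in kidney were Unc13d, which primes granules for fusion (log2 fold change 2.02, SE 0.40), and Srgn, the proteoglycan that packs granule proteins (0.97, SE 0.25). Srgn was also higher in lung (1.63, SE 0.28) and skin (3.25, SE 0.61), and Ctsc, which activates granzymes, in lung (1.13, SE 0.32) and skin (3.38, SE 0.69). Without vehicle replicate 5, 1 of 12 of these genes was called in lung, Srgn at 1.34 (SE 0.28), while Ctsc lost its call (0.68, SE 0.29, edgeR adjusted p = 0.244). Of the granzyme inhibitors Serpinb6b was higher in kidney (0.97, SE 0.24) and none of 2 tested in lung.

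On the side of the target, H2-T23, which encodes the Qa-1 molecule recognised by CD94 receptors, was the only gene of the NKG2D and CD94 ligand list tested in kidney, liver and lung. It was higher with age in all 3, by 1.53 (SE 0.22), 1.38 (SE 0.35) and 2.06 (SE 0.46), and lower with ABT-737 in kidney (-1.52, SE 0.25). Without vehicle replicate 5 the lung call was lost (1.82, SE 0.50, edgeR adjusted p = 0.0596). Of the death receptor and caspase genes kidney had 1 of 8 called higher with age (Tnfrsf1a, 0.54, SE 0.14), liver 1 of 5 (Tnfrsf1a, 0.81, SE 0.26) and skin 1 of 6 (Fadd, 1.25, SE 0.29), beside the same shares of all genes.

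Young tissues without treatment gave the starting levels. In a joint edgeR fit of 30 kidney, liver and lung libraries, 8 members were tested, and 7 were higher in young lung than young kidney, where 32.6% of 13107 genes were called higher. The largest difference was in Gzma (log2 fold change 4.48, SE 0.80, edgeR adjusted p = 1.46e-05) and the smallest called one in Prf1 (1.97, SE 0.55, edgeR adjusted p = 0.00224). Against young liver 4 were higher in lung (Gzma, Nkg7, Ctsw and Prf1), where 37.6% of all genes were called higher. Without liver young replicate 2 or 3 Prf1 lost that call (edgeR adjusted p = 0.0911 and 0.0907), and without lung young replicate 3 Gzmb lost its call against kidney (edgeR adjusted p = 0.0728). Between liver and kidney edgeR called 0 of 8, with 0 at an unadjusted p under 0.05 and 0 by DESeq2, beside 41.2% of all genes. Nkg7 stood at 27.7 ± 5.81 CPM (SD, n = 4) in young lung, 4.24 ± 1.13 in kidney and 1.17 ± 1.37 in liver, on a scale set over the 3 tissues. Prf1 stood at 7.24 ± 0.964, 1.67 ± 1.09 and 1.30 ± 1.5 CPM and Gzma at 8.48 ± 4.06, 0.299 ± 0.378 and 0 CPM in the same order (SD, n = 4 each).

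Whether the effects differed between tissues was tested in the same joint fit. For vehicle against young, edgeR called 0 of 8 members in each of the 3 differences between tissues, with 0 at an unadjusted p under 0.05 and 0 by DESeq2, beside 0.786% of all genes for liver and kidney, 8.04% for lung and kidney and 11.4% for lung and liver. For ABT-737 against vehicle it called 0 of 8 as well, beside 0.0839%, 0% and 0.290% of all genes. For Nkg7 the age effect was larger in lung than in kidney by 1.21 on the log2 scale (SE 0.69, edgeR adjusted p = 0.291) and larger in liver than in kidney by 2.48 (SE 1.43, edgeR adjusted p = 0.533). With such errors, differences of this size were not detectable, which does not show that the effects were alike.

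The 5 other genes whose log2(CPM + 1) was most like that of the summed members across the libraries of a tissue are named as a description, since libraries share depth and cell make-up. In kidney they were Grap2, Pou2f2, Arhgap9, Selplg and Ptprc (Pearson's r from 0.977 to 0.985 over 10 libraries). In lung they were Socs1, Lilrb4a, Cd7, Ms4a6b and Cklf (0.977 to 0.985 over 10 libraries), and in skin Cyba, Fcgr1, Laptm5, Npc2 and Ncf4 (0.987 to 0.992 over 9 libraries). In liver they were Hp, Fetub, Orm1, Il6st and Lbp (0.969 to 0.984 over 10 libraries).

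**Figure D5:**
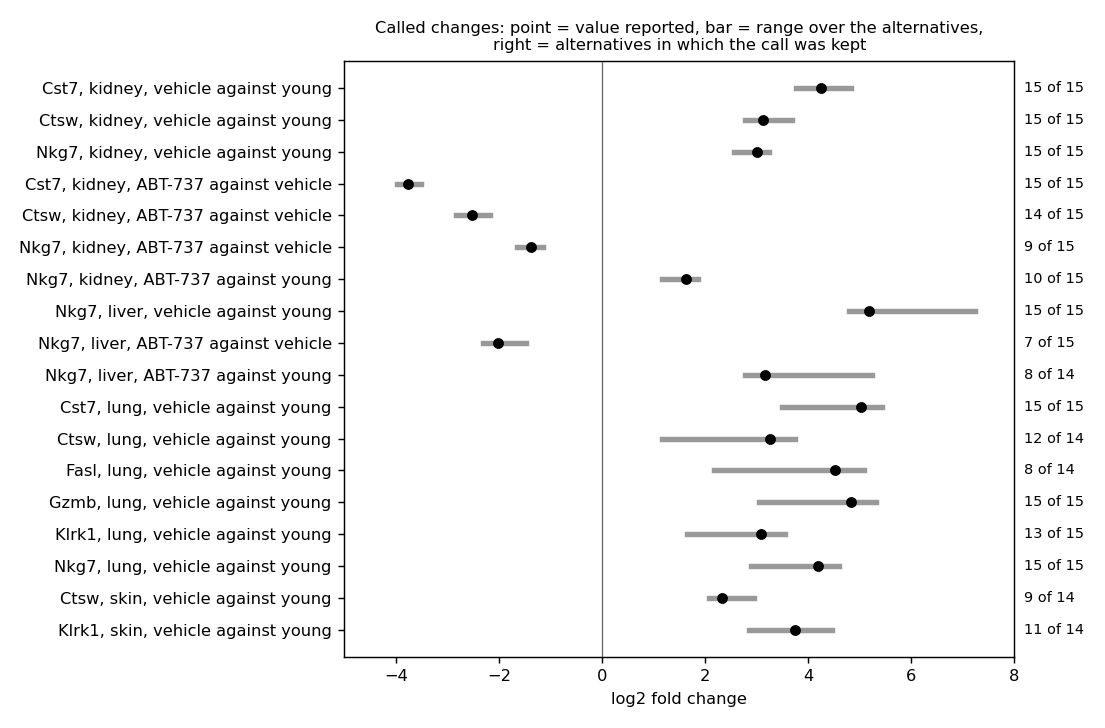
Log2 fold change of each called difference of a member (point) with its range over the processing alternatives (bar), and at the right the number of alternatives that kept the call. Cst7 and Nkg7 in kidney and Cst7, Gzmb and Nkg7 in lung, vehicle against young, kept it in all 15, and Nkg7 in liver, ABT-737 against vehicle, in 7 of 15.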

How the data were processed

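Read counts per gene were used as the authors deposited them, 1 column per library, in 1 table for kidney, liver and lung (1 RefSeq transcript per gene) and 1 for skin (1 Ensembl transcript per gene). The submitters' processing notes name bcl2fastq, HISAT 0.1.5, HOMER and mm10, with no roles. Whether reads were collapsed on molecular barcodes was not stated, so intervals and the floor of 3 counts cover counting error only. Within each tissue the 3 groups were fitted together in edgeR 4.0.16 (R 4.3.3): genes were kept by filterByExpr (minimum count 10, minimum total count 15), scaled by TMM, and tested two-sided by the quasi-likelihood F-test with Benjamini-Hochberg adjustment over all genes kept, at a threshold of 0.05. A joint fit of the 30 kidney, liver and lung libraries tested young tissues against each other and differences of effects between tissues. DESeq2 1.42.0 and the other alternatives of the closing section were run on the same counts. Only the edgeR test of ABT-737 against vehicle within each tissue was tried on simulated counts. Shares have exact Clopper-Pearson 95% intervals.

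The 10 genes and all gene lists were chosen with earlier results of these data known. The text names all 10 members, up to 4 called genes per list by size of the log2 fold change, and the defining genes Cd3e, Cd8a and Ncr1. Klrb1c and the counts of Eomes were added after their values were seen. Also named are the 5 genes per tissue most like the summed members. The lung result of the death receptor and caspase list is not reported here.

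Replicates differed by more than sampling noise in all 45 pairs of one group (smallest chi-square per degree of freedom 2.40). Correlations of the deviations of same-numbered vehicle and ABT-737 libraries were 0.176 to 0.427 in lung, so the number was taken to pair lung libraries. They were -0.211 to 0.0210 in kidney, -0.0353 to 0.161 in liver and -0.575 to 0.273 in skin, where it was not. Differently numbered libraries reached 0.302 in lung (vehicle replicate 4 with ABT-737 replicate 3) and 0.731 in skin. The check therefore does not show that the number pairs libraries. Promoter windows are from RefSeq (GRCm38.p6).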

Additional observations from a re-analysis of the deposited data

Results flagged for a closer look

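Klrd1 in the lungs of young mice stood apart in 1 library: replicate 3 had 2.17 CPM (4 counts), while the other 3 young lungs had 1 count each. It was found by comparing the gap between the highest or lowest library and its nearest neighbour with the range of the group, in the 11 groups of 4 libraries in which a member had more than 3 counts in some library. Chance alone gives about 1 such case in 20 groups.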

How the results depend on the processing

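Counts of members called moved by more than 1.5 times under these settings. With no expression filter 6 members were called with age in kidney, 3 in liver and 5 in skin, beside 1818, 1942 and 2306 of all genes. ABT-737 against vehicle gave 2 in liver and 5 in lung, and ABT-737 against young 2 in lung, beside 512, 359 and 805 of all genes. DESeq2 called 0 for ABT-737 against vehicle in liver, 2 in lung for ABT-737 against vehicle and 2 against young, and 4 with age in skin. Of all genes it called 205, 342, 783 and 2665 in the same order. Fits of only the 2 groups compared gave 0 in liver for ABT-737 against vehicle and against young, and 2 in lung for ABT-737 against young. Beside these stood 98, 1102 and 487 of all genes. Using DESeq2's size factors in edgeR changed none of the 70 results for single genes and no count. With the replicate number as a block, kidney gave 3 members for vehicle against young, 2 for ABT-737 against vehicle and 0 for ABT-737 against young, liver 1, 0 and 0, lung 3, 3 and 0, and skin 0, 0 and 0, while 99 of all genes were called in lung for ABT-737 against vehicle, where 0 were called without the block. In the joint fit with group and number as replicate block, 0, 7 and 4 members were called between young tissues, beside 5287, 8398 and 8025 of all genes. It called 0 members in each difference of effects, beside 0 to 1322 of all genes. The block within a tissue lost the calls of Nkg7 in kidney for ABT-737 against vehicle (edgeR adjusted p = 0.0762) and against young (0.363). It also lost those of Nkg7 in liver for the same comparisons (edgeR adjusted p = 0.135 and 0.150). In skin it lost those of Ctsw and Klrk1 for vehicle against young (edgeR adjusted p = 0.953 each), where it called 0 of all genes. The block turned the sign of 5 uncalled differences between ABT-737 and young: Gzma 0.022, Ctsw -0.78 and Klrk1 -0.13 in lung, and Nkg7 -0.19 and Prf1 -0.44 in skin. Replicate numbers 1 and 2 occur only in young groups and 5 only in old ones. A block therefore compares old with young mice mostly through numbers 3 and 4 (only 3 in skin), which were not shown to pair them. It also leaves fewer residual degrees of freedom, and the cause of the sign changes was not tested further.

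Leaving out each library in turn, the members called ranged from 3 to 7 in lung for vehicle against young, from 0 to 2 for ABT-737 against vehicle and from 0 to 3 for ABT-737 against young. They ranged from 1 to 3 in kidney for ABT-737 against vehicle, from 0 to 1 for ABT-737 against young in kidney and for both ABT-737 comparisons in liver, and from 0 to 4 in skin for vehicle against young. Against young kidney 6 to 7 and against young liver 3 to 4 were called in young lung. The lowest lung count for vehicle against young came without vehicle replicate 5, beside 502 of all genes called. In skin 0 members were called without young replicate 1 or 2, which leaves 2 young libraries, and only 39 and 41 of all genes were. Uncalled values that changed sign ranged from -0.42 to 0.30 for Gzma and from -0.22 to 0.33 for Ctsw (lung, ABT-737 against young), from -0.18 to 0.10 for Prf1 (lung, vehicle against young), from -2.44 to 0.42 for Fasl (lung, ABT-737 against vehicle) and from -0.80 to 2.90 for Fasl (young lung against liver). The difference of the ABT-737 effect on Nkg7 ranged from -1.81 to 0.30 between lung and kidney and from -1.11 to 1.0 between lung and liver. The liver libraries were shallow, and with the expression filter only Nkg7 was tested there. Leaving vehicle replicate 5 out of the lung gene lists was chosen after seeing the data.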
